A study of Mus musculus with 22 samples.

Results

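Old RCAM libraries, labelled as coming from the renal capsule of aged mice, were set against old capsule tissue, the whole fibrous sheath of the kidney from aged mice. The comparison held 7 of the 22 libraries of the series, 4 of old RCAMs and 3 of old capsules, chosen by their titles. It asked which transcripts of the old capsule were enriched in its macrophages and which were missing from them, for antibody, T cell, chemokine, complement and lipid genes. The chains of complement C1q and apolipoprotein E were higher in old RCAMs. So were most measured genes of Fc receptors, CC chemokine ligands, chemokine receptors and eicosanoid synthesis. Genes of the T cell receptor complex, immunoglobulin G heavy chains, adipocytes, complement factor D and atypical chemokine receptors were lower in old RCAMs, several of them to the limit of detection.

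All libraries were bulk RNA sequencing of mouse material, with no treatment, and the labels give no age in weeks or months, sex, strain or batch. The titles do not expand RCAM. Their cell type is given as whole tissue, but according to the design text some capsules were sorted for macrophages by FACS. Young RCAMs (4 libraries) and young capsules (3 libraries) served for a test of whether an enrichment differed with age. The labels do not tie replicates to animals, and each p-value therefore rests on a spread between samples that could be technical only. The labels describe both a stranded kit for regular input and a kit for low input, and do not say which library had which. Total counts were 45 to 51.8 M per old RCAM library and 27.1 to 43.2 M per old capsule library, M being 1e6.

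Macrophages of a tissue sheath engulf debris and antibody-coated particles through Fc receptors, release chemokines that recruit other leukocytes, and make several complement proteins themselves. Complement is a cascade of plasma and tissue proteins in which C1q, lectins or spontaneous C3 turnover lead to cleavage of C3 and C5, and regulators on host cells hold it back. Antibody transcripts come from B cells and plasma cells, T cell receptor transcripts from T cells, and the enzymes of fat storage mainly from adipocytes. The renal capsule lies against perirenal fat and next to the adrenal gland, and holds fibroblasts, vessels and leukocytes as well as macrophages.

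The sorted identity of the old RCAM libraries was checked against markers. Csf1r, the receptor for macrophage colony stimulating factor, had 8484, 9822, 8712 and 7966 CPM in old RCAMs, against 496, 498 and 583 CPM in old capsules, where CPM is counts per 1000000 of the TMM-scaled library total. All 4 old RCAM libraries lay above all 3 old capsules, by 16.6-fold (log2 fold change 4.06 ± 0.17, adjusted p = 1.24e-06). Here and below ± after a fold change is its standard error, and adjusted p-values are from edgeR's quasi-likelihood test, adjusted by Benjamini-Hochberg over every gene that passed the filter. Adgre1, which encodes the macrophage surface protein F4/80, had 2075, 2635, 2394 and 2102 CPM in old RCAMs, against 259, 185 and 477 CPM in old capsules. The groups did not overlap (log2 fold change 2.91 ± 0.33, adjusted p = 7.77e-05). Lyve1, a hyaluronan receptor of some tissue macrophages and of lymphatic vessels, had 1207, 854, 1144 and 617 CPM in old RCAMs, against 97.2, 149 and 140.2 CPM in old capsules. Every old RCAM library was again above every old capsule (log2 fold change 2.89 ± 0.28, adjusted p = 3.61e-05). Of 14 macrophage markers, 13 were higher in old RCAMs and 0 lower, with a median log2 fold change of 2.78. Over all 15657 genes counted in the same way, 34.0% were higher and 35.4% lower. Mpeg1, a pore-forming protein of phagocytes, was the one that missed the threshold of 0.05 (log2 fold change 0.28 ± 0.32, adjusted p = 0.464), though it passed without old capsule replicate 3 (0.74, adjusted p = 0.0389).

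Markers of most other cell types were lower in old RCAMs than in the tissue, and dendritic cell markers and 3 of 8 neutrophil markers were higher. Summed over a marker list, in CPM of the unscaled library total, macrophage markers came to 31579 to 34716 CPM in old RCAMs, against 3735 to 9958 CPM in old capsules. Dendritic cell markers summed to 435 to 505 CPM in old RCAMs, against 66.2 to 116 CPM in old capsules, and all 6 were higher in old RCAMs. Neutrophil markers summed to 1809.9 to 2322 CPM in old RCAMs, against 145 to 159 CPM in old capsules. Their sum had the widest ratio of the marker lists higher in old RCAMs. Most of that sum was Mmp9, a gelatinase of neutrophils and macrophages, with 1854, 2464, 2329 and 2091 CPM in old RCAMs, against 112, 127 and 108 CPM in old capsules. S100a8, a calprotectin chain that defines neutrophils, had 0.581, 0.759, 0.0984 and 0.498 CPM in old RCAMs, against 2.26, 1.89 and 2.51 CPM in old capsules, and S100a8 and its partner S100a9 were both lower in old RCAMs (-2.19 and -2.80 on the log2 scale). Retnlg and Csf3r, of neutrophils, were higher (4.87 and 3.05). Fibroblast markers summed to 939 to 2669.7 CPM in old RCAMs, against 7872 to 11437 CPM in old capsules, which made the old RCAM mean 17.8% of the old capsule mean. Col1a1, a collagen chain of fibroblasts, had 85.4, 59.2, 160.2 and 261 CPM in old RCAMs, against 656, 463 and 584 CPM in old capsules. Old RCAM replicates 3 and 4 held the most fibroblast RNA, and no old RCAM library reached the old capsules (log2 fold change -2.01 ± 0.45, adjusted p = 0.00382). Endothelial markers summed to 23.3 to 57.9 CPM in old RCAMs, against 713 to 1324 CPM in old capsules, adipocyte markers to 34.4 to 55.6 CPM in old RCAMs, against 7978 to 12754 CPM in old capsules, and mast cell markers to 21.2 to 61.4 CPM in old RCAMs, against 151 to 264 CPM in old capsules. Slc34a1, a phosphate transporter of the kidney proximal tubule, had 77.0, 15.9, 47.2 and 71.5 CPM in old RCAMs, against 292, 119 and 437 CPM in old capsules. Pecam1, an endothelial adhesion molecule, had 5.32, 8.98, 12.4 and 6.93 CPM in old RCAMs, against 219.9, 120.4 and 129.8 CPM in old capsules. Both were lower in old RCAMs (log2 fold change and adjusted p of -2.42, 0.00448 for Slc34a1 and -4.22, 1.19e-05 for Pecam1). Adrenal transcripts were concentrated in old capsule replicate 2: Cyp11a1, the first enzyme of steroid synthesis, had 0.325, 0, 0.0984 and 0 CPM in old RCAMs, against 0.781, 726 and 0.959 CPM in old capsules. Its log2 fold change of -11.13 was -3.00 without that library, and no longer past the threshold (adjusted p = 0.0838). With limma-voom and all 7 libraries it was not past the threshold either (0.191).

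**Figure D1:**
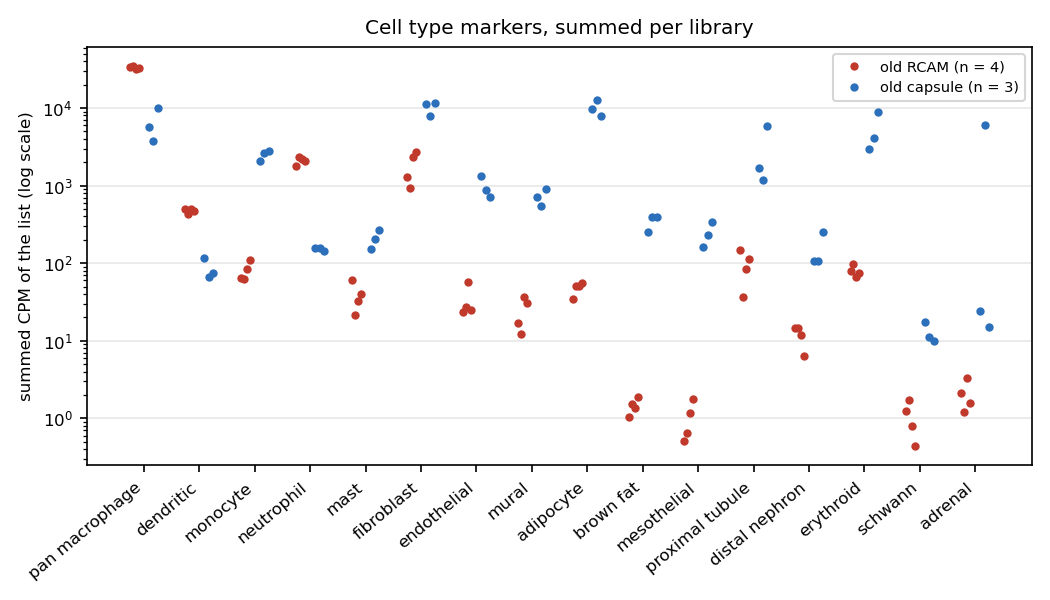
Summed level of each cell type marker list in each library, in CPM of the library total on a log scale, for old RCAMs (red, left of each pair, n = 4) and old capsules (blue, right, n = 3). Macrophage, dendritic cell and neutrophil lists lie higher in old RCAMs, and the other 13 lists lie higher in old capsules.

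A difference in counting between the groups had to be set apart before the gene lists could be read. Of the 410 genes with at least 300 counts over the old capsules whose exons lay wholly within the span of a gene on the opposite strand, 344 (83.9%) had 0 counts in all 4 old RCAM libraries. Of the 8312 such genes with no opposite-strand overlap, 49 (0.59%) did. In all, 343 of these nested genes were at 0 in all 16 sorted macrophage or RCAM libraries of the series, kidney macrophages included. B2m, the light chain of class I histocompatibility molecules that nearly all cells express, had 0, 0, 0 and 0 CPM in old RCAMs, against 2289, 2429.7 and 2770.1 CPM in old capsules. A zero of that kind cannot be read as missing RNA, and the counting rule of the authors is not given in the sources used here. Members with at least 50% of their exon bases inside the span of another annotated gene on either strand are therefore called nested below, and their calls are not read. Nested members of the lists included Ms4a1, Cd27, Foxp3, Cd247, Ccl2, Ccl6, Cxcl10, Cxcr6, C1s1, Fcna, Cfb, Itgam, Lipe and G0s2. This split was chosen after the data were seen.

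**Figure D2:**
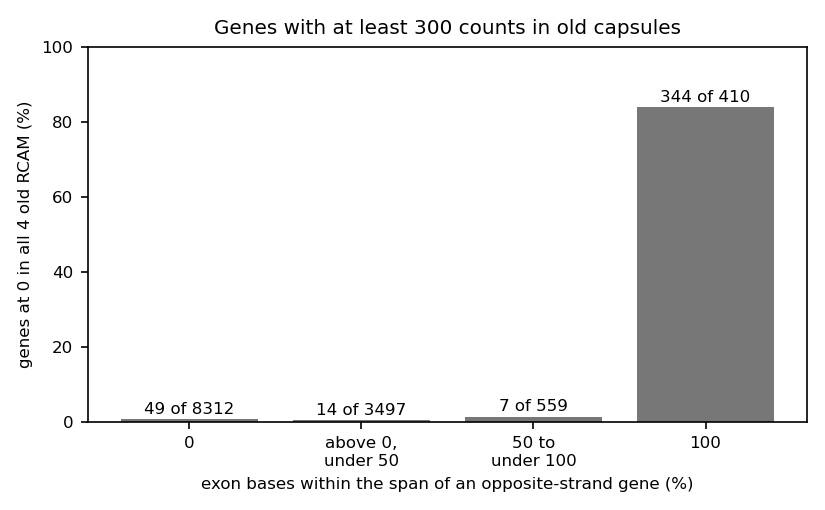
Share of genes with 0 counts in all 4 old RCAM libraries, among genes with at least 300 counts over the 3 old capsules, by the percentage of exon bases inside an opposite-strand gene. The share is 83.9% for wholly nested genes and 1.25% or less in the other 3 classes.

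The other genes of the comparison also differed widely. Of 15657 non-nested genes tested, 5325 (34.0%) were higher and 5538 (35.4%) lower in old RCAMs, so a list with such shares is not distinguished from the rest. At least 4-fold differences were called for 10.5% (higher) and 20.8% (lower), and the median log2 fold change of non-nested genes was -0.05. The groups did not overlap for 35.2% of non-nested genes with old RCAMs above and 36.1% with old RCAMs below (33.4% and 39.2% with nested genes kept). With nested genes kept, 5664 of 17595 genes (32.2%) were higher and 6767 (38.5%) lower. Without a scaling factor the split was 4348 higher against 7918 lower, and the median over all genes tested was -0.48 in place of -0.16. The mitochondrial share of counts was 0.125 to 0.146% in old RCAMs, against 1.69 to 1.90% in old capsules. Sorting, library kit and cell type cannot be told apart in these differences. Nor can fewer cells of a type be told apart from less RNA per cell in bulk samples.

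Fos, a transcription factor of the immediate-early class, had 1671, 2209, 2021 and 2698 CPM in old RCAMs, against 8.24, 4.99 and 19.1 CPM in old capsules. It stood among the largest differences of all non-nested genes (log2 fold change 7.65 ± 0.56, adjusted p = 8.14e-06; 8.34 without old capsule replicate 3). Nfkbid, an inhibitor-family regulator of NF-kB, had 157, 129.9, 111 and 178 CPM in old RCAMs, against 3.51, 1.55 and 1.75 CPM in old capsules and was higher in every old RCAM library (log2 fold change 5.97 ± 0.37, adjusted p = 3.71e-06). Cxcl2, a neutrophil chemokine, and Cntnap5b, a neurexin-family gene, were also among the 8 largest (7.15 and 8.85 on the log2 scale, and 9.46 for Cntnap5b without old capsule replicate 2). At the other end, Rgmb, a co-receptor for bone morphogenetic proteins, had 0, 0, 0 and 0 CPM in old RCAMs, against 29.1, 28.8 and 22.2 CPM in old capsules, which made it at least 382-fold lower, counting 3 reads per library as the floor. Gys2, a glycogen synthase, and Dio2, which activates thyroid hormone in brown fat, were also at 0 in old RCAMs and were at least 323-fold and 325-fold lower. Upk3b, a marker of mesothelium, and Pon1, a lipoprotein-bound esterase, averaged 0.0523 and 0.0468 CPM in old RCAMs, against 87.3 and 96.1 CPM in old capsules (-10.62, 7.04e-06 for Upk3b and -10.92, 5.1e-06 for Pon1, as log2 fold change and adjusted p). On a handful of reads in old RCAMs, Upk3b was at -14.84 without old RCAM replicate 1, and Pon1 at -12.35 without old RCAM replicate 4 and -10.22 without old capsule replicate 2.

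**Figure D3:**
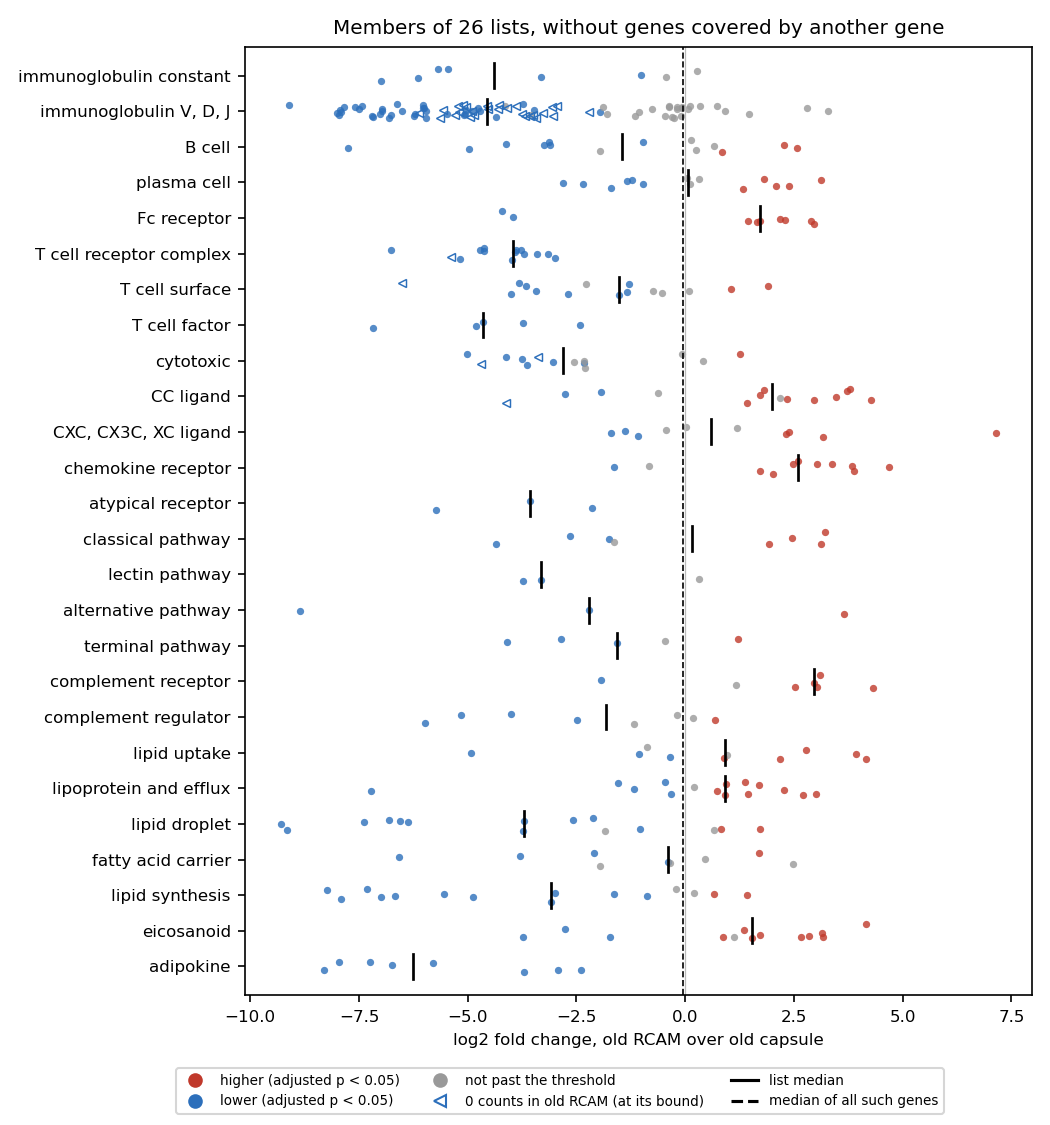
Log2 fold change of old RCAMs over old capsules for each non-nested member of the 26 topic lists that passed the filter. Red points were higher and blue points lower at an adjusted p under 0.05, grey points missed it, and open triangles are members with 0 counts in all old RCAM libraries, drawn at their bound. Black bars are list medians, with those members at their bound, and the dashed line is the median of all non-nested genes, -0.05. Fc receptors, CC ligands, chemokine receptors, complement receptors and eicosanoid genes lie mostly to the right. T cell, atypical receptor, droplet and adipokine genes lie mostly to the left.

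Antibody transcripts were lower in old RCAMs than in the old capsule, but the immunoglobulin M heavy chain was far from absent. Ighm, its constant region (ENSMUSG00000076617, GRCm38 chromosome 12, 113418558 to 113422730), had 2027, 1702, 1570.4 and 1350.3 CPM in old RCAMs, against 3290.3, 2757 and 4043 CPM in old capsules. All 4 old RCAM libraries lay below all 3 old capsules, by 2.02-fold (log2 fold change -1.02 ± 0.19, adjusted p = 0.00127). Ighd, the immunoglobulin D heavy chain, had 15.5, 22.3, 20.5 and 17.3 CPM in old RCAMs, against 13.2, 16.5 and 17.6 CPM in old capsules. Those ranges overlapped and the difference missed the threshold (log2 fold change 0.26 ± 0.19, adjusted p = 0.235). Ighg2b, an immunoglobulin G heavy chain, had 0.0929, 1.02, 0.0492 and 0 CPM in old RCAMs, against 6.54, 102 and 7.71 CPM in old capsules. It was lower (log2 fold change -7.0 ± 1.44, adjusted p = 0.00234), and Ighg1, Ighg2c and Ighg3 were lower as well, at -5.69, -5.46 and -6.14 on the log2 scale. Each of these 4 fold changes rested on few reads and moved by over 1.5 times when 1 old RCAM library was left out, to -9.56 for Ighg2b without replicate 2, -10.69 and -11.84 for Ighg1 and Ighg3 without replicate 1, and -9.71 for Ighg2c without replicate 3. Without old capsule replicate 2 the log2 fold changes of Ighg1, Ighg2b and Ighg2c were -4.66, -4.58 and -4.46. Of 8 non-nested constant regions that passed the filter, 0 were higher and 6 lower, with a median log2 fold change of -4.39.

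Some antibody genes were high in single old RCAM libraries. Igha, the immunoglobulin A heavy chain, had 0.0697, 428, 0.468 and 0.190 CPM in old RCAMs, against 69.7, 215 and 155 CPM in old capsules. Old RCAM replicate 2 was above every old capsule while the other 3 were near 0, so no difference was called (log2 fold change -0.45 ± 2.10, adjusted p = 0.858; called with limma-voom, at -6.50, adjusted p = 0.0142), and without that library the log2 fold change was -9.23 (adjusted p = 2.73e-05). Igkv4-91, a kappa light chain variable segment, had 0, 193, 0.148 and 169.9 CPM in old RCAMs, against 63.6, 92.5 and 60.7 CPM in old capsules. Old RCAM replicates 2 and 4 exceeded the old capsules and the other 2 were at or near 0 (log2 fold change 0.33 ± 1.73, adjusted p = 0.874). Igkv3-2, another kappa segment, had 192, 4.45, 2.29 and 0 CPM in old RCAMs, against 136, 104 and 15.3 CPM in old capsules, with replicate 1 alone at the level of the tissue (log2 fold change -0.77 ± 1.74, adjusted p = 0.704; -5.23, adjusted p = 0.00744, without it). Of 88 non-nested variable, diversity and joining segments that passed the filter, 0 were higher and 63 lower, and 27 had 0 counts in every old RCAM library. The median log2 fold change was -6.56, or -4.55 with those at 0 set to their bound. In old RCAMs 76 of the 88 segments exceeded 10 CPM in no library and none did in all 4. In old capsules 72 exceeded 10 CPM in no library and 5 did in all 3. The filter kept 89 of 247 segments, and near-identical segments share reads of 50 bp, so single segments are uncertain. The filter asked for enough reads in at least 3 libraries, the size of the smaller group. The 27 segments at 0 in old RCAMs therefore passed through the old capsules alone. A segment with reads in only 1 or 2 old RCAM libraries could not pass without the tissue. The split of 0 higher and 63 lower, and the median, are thus partly fixed by the filter.

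Genes of B cells were divided. Cd79a, which carries signals for the B cell receptor, had 1.51, 1.48, 0.640 and 0.949 CPM in old RCAMs, against 9.78, 9.38 and 10.4 CPM in old capsules. It was lower in all 4 old RCAM libraries (log2 fold change -3.10 ± 0.34, adjusted p = 6.82e-05). Pax5, the B cell identity factor, and Fcmr, a receptor for immunoglobulin M, averaged 0.0174 and 0.233 CPM in old RCAMs, against 4.38 and 7.37 CPM in old capsules (-7.75 and -4.97 on the log2 scale; -10.52 for Pax5 without old RCAM replicate 1). Bank1, an adaptor downstream of the B cell receptor, instead had 80.5, 92.4, 78.8 and 64.5 CPM in old RCAMs, against 16.8, 15 and 17.3 CPM in old capsules. All 4 old RCAM libraries were above all 3 old capsules (log2 fold change 2.27 ± 0.15, adjusted p = 5.36e-06), and Cd72, a B cell and myeloid inhibitory receptor, was higher as well (log2 fold change 2.58 ± 0.30, adjusted p = 0.000101). Of 14 non-nested B cell members, 3 were higher and 7 lower. Their summed level, in which Cd72, Bank1, Cd79b and Cd22 weighed most in old RCAMs, was 207 to 249 CPM in old RCAMs, against 109.6 to 162 CPM in old capsules.

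Plasma cell members were also divided. Jchain, the chain that links polymeric immunoglobulins (ENSMUSG00000067149, GRCm38 chromosome 5, 88519809 to 88527891), had 111, 263, 50.8 and 35.9 CPM in old RCAMs, against 247, 259 and 619.8 CPM in old capsules. Old RCAM replicate 2 overlapped the tissue and the difference was small beside that spread (log2 fold change -1.70 ± 0.66, adjusted p = 0.0449). The call was lost without any one of 6 libraries, lowest without old capsule replicate 3 (-1.13, adjusted p = 0.196), and also with DESeq2 (adjusted p = 0.0561) or with all 22 libraries in the fit (0.187). Without old RCAM replicate 2 the log2 fold change was -2.50. Pou2af1, a co-activator of immunoglobulin transcription, averaged 1.94 ± 0.924 CPM in old RCAMs, against 13.7 ± 1.55 CPM in old capsules (SD; log2 fold change -2.82 ± 0.35, adjusted p = 0.000146). Tnfrsf13b, the receptor TACI for B cell survival ligands, had 97.2, 116, 105 and 106 CPM in old RCAMs, against 11.6, 10.3 and 14.3 CPM in old capsules. It was higher in every old RCAM library (log2 fold change 3.13 ± 0.15, adjusted p = 1.85e-06). Prdm1 and Irf4, transcription factors of plasma cells that myeloid cells also use, were higher too (2.39 and 1.32 on the log2 scale). Xbp1 and Txndc5, of protein folding in the endoplasmic reticulum, missed the threshold (0.03 and 0.10). Of 14 members, 5 were higher and 6 lower, with a median log2 fold change of 0.06. Over all non-nested genes 34.0% were higher and 35.4% lower, so this list was not distinguished from the rest.

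Receptors that bind antibody were among the genes enriched in old RCAMs. Fcgr3, an activating receptor for immunoglobulin G (ENSMUSG00000059498, GRCm38 chromosome 1, 171051174 to 171064935), had 1228, 1229.8, 1278 and 1099.5 CPM in old RCAMs, against 123, 107 and 236 CPM in old capsules. Every old RCAM library was above every old capsule, by 7.79-fold (log2 fold change 2.96 ± 0.29, adjusted p = 3.52e-05). Fcer1g, the signalling chain shared by several Fc receptors, had 959, 1017, 938 and 844 CPM in old RCAMs, against 111, 78.4 and 189 CPM in old capsules. It was separated in the same way (log2 fold change 2.90 ± 0.30, adjusted p = 4.67e-05). Fcgr2b, the inhibitory receptor for immunoglobulin G, had 540.2, 617, 604 and 477 CPM in old RCAMs, against 94.5, 109.6 and 139 CPM in old capsules and also did not overlap (log2 fold change 2.29 ± 0.18, adjusted p = 1.11e-05). Fcgrt, the neonatal receptor that recycles immunoglobulin G, averaged 1467 ± 218 CPM in old RCAMs, against 449.7 ± 60.6 CPM in old capsules (SD; log2 fold change 1.71 ± 0.17, adjusted p = 4.39e-05). The members Fcgr1, Fcgr4 and Trim21 were higher as well (2.19, 1.66 and 1.44 on the log2 scale). The remaining members were lower. Pigr, the epithelial receptor that exports polymeric antibody, and Fcer1a, the mast cell and basophil receptor for immunoglobulin E, averaged 0.614 and 0.371 CPM in old RCAMs, against 11.4 and 5.79 CPM in old capsules (-4.22, 0.00174 for Pigr and -3.95, 0.00411 for Fcer1a, as log2 fold change and adjusted p; -4.94 for Pigr without old RCAM replicate 3). Of 9 non-nested members, 7 were higher and 2 lower.

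The promoters of all non-nested topic members called higher were searched for GAGGAAGT and for its reverse complement ACTTCCTC. GAGGAAGT is a purine-rich motif of the kind bound by PU.1, the ETS factor of myeloid cells. RefSeq promoters of 300 bases, from 250 before to 50 after the gene start, were at hand for 60 of the 80 members called higher and 90 of the 190 called lower. The motif was in 8 of the 60 (13.3%) and 2 of the 90 (2.22%), against 3.29% of all 27025 promoters of the same length. The match describes the letters and not a bound site, and the difference between these shares was not tested. The share of all promoters includes genes that did not pass the filter. The promoters of Fcgr4 (GRCm38.p6 chr1:171018676-171018975, plus strand), Pf4 (GRCm38.p6 chr5:90772185-90772484, plus strand) and C1qc (GRCm38.p6 chr4:136892865-136893164, minus strand) are shown 5′ to 3′ on the strand of the gene as examples from the Fc receptor, chemokine and complement lists, with the motif in capitals.
Fcgr4: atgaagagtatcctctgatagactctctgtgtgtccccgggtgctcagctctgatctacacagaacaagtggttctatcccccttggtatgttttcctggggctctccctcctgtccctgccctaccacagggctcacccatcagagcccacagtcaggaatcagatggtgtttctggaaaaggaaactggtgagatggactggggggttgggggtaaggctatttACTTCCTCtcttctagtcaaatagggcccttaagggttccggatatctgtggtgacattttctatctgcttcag
Pf4: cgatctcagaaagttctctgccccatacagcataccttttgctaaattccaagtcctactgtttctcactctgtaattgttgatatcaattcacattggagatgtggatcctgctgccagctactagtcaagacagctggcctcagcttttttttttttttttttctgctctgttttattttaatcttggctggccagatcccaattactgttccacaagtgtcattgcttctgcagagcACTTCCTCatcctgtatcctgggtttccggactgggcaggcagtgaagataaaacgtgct
C1qc: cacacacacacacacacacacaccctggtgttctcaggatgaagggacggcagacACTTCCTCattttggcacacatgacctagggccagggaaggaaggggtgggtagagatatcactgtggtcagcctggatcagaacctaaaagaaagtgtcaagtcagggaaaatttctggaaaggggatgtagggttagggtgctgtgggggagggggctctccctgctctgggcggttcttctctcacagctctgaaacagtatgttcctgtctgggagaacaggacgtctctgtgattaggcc

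Transcripts of the T cell receptor complex were close to absent from old RCAMs. Cd3e, a signalling chain of the receptor (ENSMUSG00000032093, GRCm38 chromosome 9, 44998740 to 45009627), had 0.465, 0.152, 0.172 and 0.309 CPM in old RCAMs, against 9.05, 7.0 and 5.72 CPM in old capsules. All old RCAM libraries were under 1 CPM and all old capsules well above it (log2 fold change -4.71 ± 0.45, adjusted p = 3.35e-05). Trbc2, a constant region of the receptor beta chain, had 0.720, 0, 0.295 and 0.617 CPM in old RCAMs, against 10.1, 11.3 and 9.03 CPM in old capsules, again without overlap (log2 fold change -4.63 ± 0.84, adjusted p = 0.00115). Lck, the kinase that starts receptor signalling, had 1.63, 0.325, 1.48 and 2.49 CPM in old RCAMs, against 17.3, 11.7 and 10.4 CPM in old capsules and was the highest of the list in old capsules (log2 fold change -3.15 ± 0.56, adjusted p = 0.00103). Trdc, the constant region of the delta chain of gamma-delta T cells, was at 0 in all old RCAM libraries and at least 41.6-fold lower, against 2.99, 1.91 and 3.84 CPM in old capsules. All 14 non-nested members were lower in old RCAMs, each at least 4-fold, with a median log2 fold change of -3.95. The summed level was 2.03 to 7.85 CPM in old RCAMs, against 82.2 to 107 CPM in old capsules. Of the 14 non-nested members that reached 1 CPM of the library total in every old capsule, 10 were under 1 CPM in every old RCAM library and are called near absent. Over all 12546 non-nested genes that reached 1 CPM in every old capsule, 8.09% were near absent (11.7% of 13792 with nested genes kept), and 2.44% of the 11056 at 1 CPM in every old RCAM library were near absent from old capsules (2.78% of 11696). Calls for Ubash3a, a phosphatase of T cells, were lost without any 1 old capsule library or without old RCAM replicate 1 (adjusted p 0.0543 to 0.0818), and its log2 fold change of -3.41 was -5.51 without old RCAM replicate 4.

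More members of the other T cell lists were lower than higher, though the summed surface list overlapped between the groups, at 83.2 to 111 CPM in old RCAMs, against 92.4 to 135 CPM in old capsules. Cd8b1, a chain of the CD8 co-receptor, had 0, 0, 0 and 0 CPM in old RCAMs, against 7.10, 4.56 and 7.41 CPM in old capsules, which made it at least 90.9-fold lower. Nkg7, of cytotoxic granules, and Lag3, an inhibitory receptor, averaged 0.946 and 0.693 CPM in old RCAMs, against 11.8 and 11.2 CPM in old capsules (-3.64 and -4.01 on the log2 scale). Of 15 surface members 2 were higher and 9 lower, of 5 transcription factors 0 and 5, and of 14 cytotoxic members 1 and 8. Shares over all non-nested genes were 34.0% higher and 35.4% lower. Some of the lower calls in the surface and cytotoxic lists were lost without any 1 old capsule library.

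The T cell list members higher in old RCAMs were Cd4, Cd2 and Klrk1. Cd4, the co-receptor of helper T cells that mouse dendritic cells and some macrophages also carry, had 42.9, 76.5, 75.7 and 73.1 CPM in old RCAMs, against 16.5, 17.1 and 20.2 CPM in old capsules. Every old RCAM library lay above every old capsule (log2 fold change 1.90 ± 0.22, adjusted p = 9.58e-05). Cd2, an adhesion molecule of T and NK cells, had 18.8, 14.9, 11.6 and 27.7 CPM in old RCAMs, against 9.07, 8.56 and 8.80 CPM in old capsules. The groups did not overlap (log2 fold change 1.05 ± 0.29, adjusted p = 0.0109), and the call was lost without a scaling factor (0.73, adjusted p = 0.0564). Klrk1, the activating receptor NKG2D, had 13.7, 14.4, 12.7 and 19.1 CPM in old RCAMs, against 7.77, 4.73 and 6.42 CPM in old capsules and was higher (log2 fold change 1.25 ± 0.24, adjusted p = 0.00177). Il7r, the interleukin 7 receptor, had 10.8, 11.6, 7.16 and 7.69 CPM in old RCAMs, against 28.4, 8.12 and 34.7 CPM in old capsules. It was called lower (log2 fold change -1.35 ± 0.44, adjusted p = 0.0215), although old capsule replicate 2 lay within the old RCAM range, and the call was lost without old RCAM replicate 3 or 4 or old capsule replicate 1 or 3 (adjusted p 0.0527 to 0.102), and with limma-voom (0.0771). Dendritic cell markers, which moved with Cd4, are given above, and their part in its level was not tested.

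Most measured CC chemokine ligands were higher in old RCAMs, and ligands of the CXC, CX3C and XC families were divided. Ccl9, a myeloid chemokine (ENSMUSG00000019122, GRCm38 chromosome 11, 83572919 to 83578636), had 1143, 1064, 1041 and 924 CPM in old RCAMs, against 133, 149.8 and 342 CPM in old capsules. All 4 old RCAM libraries were above all 3 old capsules (log2 fold change 2.33 ± 0.33, adjusted p = 0.000318). Ccl24, a ligand of the eosinophil receptor CCR3, had 360.1, 251, 383 and 245 CPM in old RCAMs, against 22.3, 22.4 and 25.7 CPM in old capsules. The separation was wide (log2 fold change 3.72 ± 0.22, adjusted p = 3.13e-06). Pf4, platelet factor 4, which macrophages also make, had 753, 788, 819.7 and 614 CPM in old RCAMs, against 69.7, 60.5 and 118 CPM in old capsules, and was higher in each old RCAM library (log2 fold change 3.17 ± 0.26, adjusted p = 1.52e-05). Ccl4 and Ccl3, inflammatory chemokines of monocytes and macrophages, averaged 40.8 and 23.2 CPM in old RCAMs, against 2.15 and 2.10 CPM in old capsules (4.26 and 3.47 on the log2 scale). Cxcl2 had 31.1, 25.5, 20.5 and 41.0 CPM in old RCAMs, against 0.273, 0.0242 and 0.331 CPM in old capsules, close to the floor in the tissue (log2 fold change 7.15 ± 0.59, adjusted p = 1.52e-05). Ccl12, Ccl22 and Cxcl16 were also higher (3.79, 2.96 and 2.39). Of 14 non-nested CC ligands that passed the filter 9 were higher and 3 lower, with a median log2 fold change of 2.00. Of 10 ligands of the CXC, CX3C and XC families 4 were higher and 3 lower, with a median of 0.60. Over all non-nested genes the shares were 34.0% higher and 35.4% lower, so this second list was not distinguished from the rest. The summed neutrophil markers, of which S100a8 was under 1 CPM in old RCAMs, were higher beside these ligands and beside C5ar1 and Alox5 described further on, and their part in those levels was not tested.

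Beside Fos, Jun, its partner in the AP-1 factor, had 871, 1079, 1089.8 and 1471 CPM in old RCAMs, against 64.8, 58.2 and 83.1 CPM in old capsules (log2 fold change 4.04 ± 0.24, adjusted p = 3.23e-06). Ier2, another immediate-early gene, averaged 579 ± 90.6 CPM in old RCAMs and 18 ± 10.1 CPM in old capsules (log2 fold change 5.01 ± 0.40, adjusted p = 1.22e-05). Atf3 missed the threshold (log2 fold change 1.51 ± 0.66, adjusted p = 0.0704), but passed without old capsule replicate 3 (2.57, adjusted p = 0.00781), with limma-voom (2.19, 0.0131) and with all 22 libraries in the fit (1.51, 0.00658). These 3 were chosen after their values were seen, and their part in the chemokine result was not tested.

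Some ligands rested on single libraries or ran the other way. Cxcl13, the B cell attractant (ENSMUSG00000023078, GRCm38 chromosome 5, 95956951 to 95961068), had 817, 118, 121 and 145 CPM in old RCAMs, against 19.6, 111 and 51.1 CPM in old capsules. Old RCAM replicate 1 was far above the rest, while the other 3 lay near old capsule replicate 2 (log2 fold change 2.31 ± 0.88, adjusted p = 0.0418), and the call was lost without that library (1.09, adjusted p = 0.101), without old capsule replicate 1 or 3 (adjusted p = 0.12 for both), and without a scaling factor (2.02, 0.0673). Without old capsule replicate 2 its log2 fold change was 3.10. Ccl8, a monocyte attractant of resident macrophages, had 642, 1214, 952 and 527 CPM in old RCAMs, against 137, 255 and 549.9 CPM in old capsules. Old capsule replicate 3 fell within the old RCAM range (log2 fold change 1.41 ± 0.48, adjusted p = 0.026); the call was lost without old RCAM replicate 2 or 3, without old capsule replicate 1 or 2, and without a scaling factor (adjusted p 0.0521 to 0.0809), and without old capsule replicate 3 the log2 fold change was 2.09. Ccl11, eotaxin, had 9.64, 6.75, 17.1 and 13.0 CPM in old RCAMs, against 76.0, 62.4 and 100.2 CPM in old capsules. It was lower in every old RCAM library (log2 fold change -2.77 ± 0.31, adjusted p = 7.53e-05), and was highest there in replicates 3 and 4, which also held the most fibroblast RNA; the part of fibroblast RNA in its level was not tested. Ccl5, made by T and NK cells and by activated myeloid cells, averaged 7.08 CPM in old RCAMs, against 27.3 CPM in old capsules (log2 fold change -1.94 ± 0.28, adjusted p = 0.00034). Cx3cl1 and Cxcl9 were lower (-1.70 and -1.08), and Cxcl12, a stromal ligand, missed the threshold (log2 fold change -0.44 ± 0.23, adjusted p = 0.122; -0.66, adjusted p = 0.0162, without old capsule replicate 2).

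Chemokine receptors separated into signalling and atypical ones. Ccr2, the monocyte receptor for CCL2 (ENSMUSG00000049103, GRCm38 chromosome 9, 124101950 to 124113557), had 615, 751, 524 and 687 CPM in old RCAMs, against 41.4, 56.4 and 38.2 CPM in old capsules. All old RCAM libraries lay above all old capsules, by 14.2-fold (log2 fold change 3.83 ± 0.21, adjusted p = 2.58e-06). Cx3cr1, the receptor for fractalkine, had 461, 539, 512 and 703 CPM in old RCAMs, against 19.8, 23.8 and 20.8 CPM in old capsules, the widest separation of the list (log2 fold change 4.69 ± 0.20, adjusted p = 1.39e-06). Ccr1 and Cxcr3 were higher too (3.03 and 2.60; 3.84 for Ccr1 without old capsule replicate 2), and Cxcr4 was lower (-1.63). Of 11 non-nested receptors that passed the filter, 9 were higher and 1 lower, with a median log2 fold change of 2.60. Their summed level was 1701 to 1985 CPM in old RCAMs, against 191 to 240.1 CPM in old capsules. Ackr3, an atypical receptor that takes up CXCL12, had 8.90, 6.12, 19.6 and 13.2 CPM in old RCAMs, against 115, 149 and 163 CPM in old capsules. It was lower throughout (log2 fold change -3.58 ± 0.37, adjusted p = 4.83e-05). Ackr1, the venular receptor also known as Duffy antigen, averaged 0.125 CPM in old RCAMs, against 6.73 CPM in old capsules (-5.73, or -6.87 without old RCAM replicate 4). The 3 non-nested atypical receptors were all lower, beside endothelial markers that summed to 23.3 to 57.9 CPM in old RCAMs, against 713 to 1324 CPM in old capsules; the part of endothelial RNA was not tested.

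Complement genes were divided: the C1q chains, C4b, properdin and receptors for complement fragments were higher in old RCAMs, and C1ra, C3, factor D, C7 and several regulators were lower. C1qb, a chain of the recognition molecule C1q (ENSMUSG00000036905, GRCm38 chromosome 4, 136880129 to 136886187), had 6580.3, 7021, 6734 and 5762 CPM in old RCAMs, against 577, 525 and 1154 CPM in old capsules. All 4 old RCAM libraries exceeded all 3 old capsules, by 8.68-fold (log2 fold change 3.12 ± 0.30, adjusted p = 3.59e-05). C1qa had 3967, 4219, 4029 and 3244 CPM in old RCAMs, against 526, 486 and 1094 CPM in old capsules, and C1qc had 5427, 5711, 5554 and 4685 CPM in old RCAMs, against 472, 403 and 848 CPM in old capsules. All 3 chains of C1q were higher in every old RCAM library (log2 fold change 2.46 ± 0.31, adjusted p = 0.000145 for C1qa; log2 fold change 3.22 ± 0.28, adjusted p = 2.08e-05 for C1qc). C4b, the next component, had 3309, 3251, 3533 and 2286 CPM in old RCAMs, against 989, 639 and 815 CPM in old capsules. It was higher as well (log2 fold change 1.93 ± 0.22, adjusted p = 7.97e-05), though reads of the near-identical C4a cannot be told apart with certainty. C1ra, the protease that C1q activates, averaged 61.3 ± 12.2 CPM in old RCAMs, against 207 ± 33.0 CPM in old capsules (SD; log2 fold change -1.75 ± 0.18, adjusted p = 5.39e-05), with the same reserve for C1rb. C1s1, its partner, was nested and is not read. Of 8 non-nested classical members, 4 were higher and 3 lower, shares near those of all non-nested genes, and the summed level was 14722 to 18026 CPM in old RCAMs, against 2467 to 4634 CPM in old capsules.

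In the alternative pathway Cfp and factor D ran in opposite directions. Cfp, properdin, which stabilises the C3 convertase (ENSMUSG00000001128, GRCm38 chromosome X, 20925454 to 20931555), had 3096, 3095, 2671 and 2306 CPM in old RCAMs, against 173, 190.1 and 308 CPM in old capsules. It was 12.5-fold higher in old RCAMs without overlap (log2 fold change 3.64 ± 0.26, adjusted p = 6.84e-06). Cfd, factor D, the protease that adipocytes secrete under the name adipsin, had 8.13, 20.6, 26.3 and 22.1 CPM in old RCAMs, against 5186, 14979 and 6719 CPM in old capsules. Old RCAM libraries held a trace of it (log2 fold change -8.86 ± 0.59, adjusted p = 5.43e-06; -8.26 without old capsule replicate 2), and adipocyte markers summed to 34.4 to 55.6 CPM in old RCAMs, against 7978 to 12754 CPM in old capsules; the part of adipocyte RNA was not tested. C3, the central component (ENSMUSG00000024164, GRCm38 chromosome 17, 57203970 to 57228136), had 1118, 606, 1027 and 1198 CPM in old RCAMs, against 4761, 4558 and 4438 CPM in old capsules. The tissue was above every old RCAM library (log2 fold change -2.22 ± 0.23, adjusted p = 4.75e-05). C7, of the membrane attack complex, had 43.2, 25.7, 62.1 and 78.0 CPM in old RCAMs, against 443, 291 and 399.8 CPM in old capsules, and was lower in old RCAMs (log2 fold change -2.86 ± 0.35, adjusted p = 0.000131). C6, of the same complex, ran the other way: it had 193, 208, 244 and 92.7 CPM in old RCAMs, against 63.6, 109 and 65.4 CPM in old capsules. It was called higher (log2 fold change 1.21 ± 0.34, adjusted p = 0.011), with old RCAM replicate 4 inside the old capsule range. Of 5 terminal members 1 was higher and 3 lower. In the lectin pathway 0 of 3 members were higher and 2 lower. Masp1, a lectin-bound protease, averaged 0.909 CPM in old RCAMs, against 9.05 CPM in old capsules (log2 fold change -3.31 ± 0.68, adjusted p = 0.00235), but -1.95 without old capsule replicate 2. Colec11, a soluble collectin, averaged 0.212 CPM in old RCAMs, against 2.87 CPM in old capsules (log2 fold change -3.73 ± 1.13, adjusted p = 0.0165; -4.65 without old RCAM replicate 4), and its call was lost without old capsule replicate 3 (adjusted p = 0.0507). Colec12, a scavenger receptor with a collectin domain, missed the threshold (log2 fold change 0.32 ± 0.26, adjusted p = 0.297).

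Receptors for complement fragments were enriched. C5ar1, the receptor for C5a (ENSMUSG00000049130, GRCm38 chromosome 7, 16246743 to 16259540), had 1509.8, 1366, 1595 and 1211 CPM in old RCAMs, against 60.8, 52.9 and 100.1 CPM in old capsules. All old RCAM libraries were above all old capsules, by 19.9-fold (log2 fold change 4.32 ± 0.27, adjusted p = 4.09e-06). C3ar1, the receptor for C3a, had 911, 983, 944 and 823 CPM in old RCAMs, against 97.7, 69.0 and 156 CPM in old capsules, again without overlap (log2 fold change 3.09 ± 0.28, adjusted p = 2.33e-05). Itgb2, the shared beta chain of the leukocyte integrins that bind cleaved C3, had 1274, 1133, 1091 and 1347 CPM in old RCAMs, against 186, 81.4 and 196 CPM in old capsules and was higher (log2 fold change 2.97 ± 0.31, adjusted p = 5.31e-05). Vsig4, a macrophage receptor for C3b, had 199, 63.7, 65.8 and 45.3 CPM in old RCAMs, against 9.09, 12 and 28.1 CPM in old capsules. It was higher in each old RCAM library and highest in replicate 1 (log2 fold change 2.52 ± 0.61, adjusted p = 0.00578; 1.84 without that library and 3.15 without old capsule replicate 3). Cr2, the B cell receptor for C3d, was lower (-1.93). Of 7 non-nested receptors 5 were higher and 1 lower, with a median log2 fold change of 2.97. Among regulators, Serping1, the C1 inhibitor, had 187, 187, 368 and 371 CPM in old RCAMs, against 1605, 1228 and 1844 CPM in old capsules. It was lower (log2 fold change -2.48 ± 0.30, adjusted p = 0.000124), and the highest old RCAM values were again in replicates 3 and 4, beside fibroblast sums of 2303 and 2669.7 CPM there and 1287 and 939 CPM in replicates 1 and 2. Clu and Cd59a, which block the attack complex, were lower (-4.01 and -5.98). Of 8 regulators 1 was higher and 4 lower.

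Lipid genes separated lipoprotein handling from fat storage. Apoe, apolipoprotein E (ENSMUSG00000002985, GRCm38 chromosome 7, 19696109 to 19699188), had 16999.6, 22544, 24166 and 23502 CPM in old RCAMs, against 3411, 2849.8 and 3786 CPM in old capsules, the highest level of any listed gene in old RCAMs. It was 6.51-fold higher than in the tissue, without overlap (log2 fold change 2.70 ± 0.20, adjusted p = 8.42e-06). Pltp, the phospholipid transfer protein, had 4614, 4698, 4705 and 3906 CPM in old RCAMs, against 518, 452 and 696 CPM in old capsules and was higher in every old RCAM library (log2 fold change 3.01 ± 0.20, adjusted p = 4.73e-06). Lipa, the lysosomal acid lipase, and Soat1, which esterifies cholesterol, averaged 1068 and 221 CPM in old RCAMs, against 332 and 84.8 CPM in old capsules (1.69, 0.00124 for Lipa and 1.38, 0.000699 for Soat1, as log2 fold change and adjusted p). Apoc1, a small apolipoprotein in the same gene cluster as Apoe, had 0.651, 1.19, 0.911 and 0.760 CPM in old RCAMs, against 61.6, 236 and 100.3 CPM in old capsules. Little of it was left in old RCAMs (log2 fold change -7.23 ± 0.51, adjusted p = 7.15e-06; -6.51 without old capsule replicate 2), and its neighbours Apoc2 and Apoc4 were nested and not read. Lpl, lipoprotein lipase, had 1341, 1660.2, 1388 and 1620.3 CPM in old RCAMs, against 4179.6, 6024 and 2996 CPM in old capsules, lower in every old RCAM library (log2 fold change -1.55 ± 0.23, adjusted p = 0.000373). Of 15 members 9 were higher and 5 lower. The summed level was 24155 to 30246 CPM in old RCAMs, against 11085 to 12603 CPM in old capsules. Most of that sum in old RCAMs was Apoe, so the difference between the sums rests mainly on 1 gene.

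Scavenger receptors and other uptake genes were mixed. Msr1, the class A scavenger receptor, had 429.9, 236, 222 and 247 CPM in old RCAMs, against 39.8, 20.2 and 63.8 CPM in old capsules. It was higher in old RCAMs (log2 fold change 2.78 ± 0.42, adjusted p = 0.00042). Cd36, a fatty acid and oxidised lipoprotein receptor, had 2557, 2425, 2383 and 2092 CPM in old RCAMs, against 2876, 3166 and 3092 CPM in old capsules. The means differed by 1.29-fold (log2 fold change -0.36 ± 0.13, adjusted p = 0.0302), and the call was lost without any 1 old RCAM library or without old capsule replicate 2 (adjusted p 0.0543 to 0.11). Vldlr, the very low density lipoprotein receptor, averaged 4.46 CPM in old RCAMs, against 135 CPM in old capsules (log2 fold change -4.93 ± 0.51, adjusted p = 4.97e-05). Marco, another scavenger receptor, had 201, 9.50, 6.08 and 37.8 CPM in old RCAMs, against 2.21, 4.70 and 3.87 CPM in old capsules. Replicate 1 carried most of its level (log2 fold change 4.15 ± 1.26, adjusted p = 0.0163; 2.32 without that library), and the call was lost without old capsule replicate 1 or 3 (adjusted p = 0.0636 and 0.0563) and with limma-voom (2.95, 0.142). Trem2, a lipid-sensing receptor of macrophages, had 161, 158, 143 and 159 CPM in old RCAMs, against 76.7, 11.8 and 151 CPM in old capsules. The old RCAM libraries were alike and the old capsules were spread (log2 fold change 0.96 ± 0.64, adjusted p = 0.205), and without old capsule replicate 3 the difference passed (1.81, adjusted p = 0.0411). Of 10 uptake members 5 were higher and 3 lower, the calls for Marco and Cd36 included. The shares of all non-nested genes were 34.0% and 35.4%.

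Most genes of fat storage and fat synthesis were lower in old RCAMs. Plin1, the droplet coat protein of adipocytes, had 1.58, 2.04, 1.60 and 3.63 CPM in old RCAMs, against 1428, 1783 and 937 CPM in old capsules. Old RCAM libraries held a few CPM at most (log2 fold change -9.29 ± 0.42, adjusted p = 1.58e-06). Plin2, the droplet coat protein of most other cells, ran the other way, with 1200.4, 1150.1, 1053 and 1219 CPM in old RCAMs, against 329, 325 and 409 CPM in old capsules. It was 3.26-fold higher in old RCAMs (log2 fold change 1.71 ± 0.14, adjusted p = 1.45e-05). Scd1, which desaturates stearic acid, had 28.9, 19.9, 59.1 and 40.8 CPM in old RCAMs, against 9585, 11332 and 12840.1 CPM in old capsules, and was lower in every old RCAM library (log2 fold change -8.24 ± 0.43, adjusted p = 2.1e-06). Fasn, fatty acid synthase, averaged 45.8 ± 8.77 CPM in old RCAMs, against 4709 ± 2746 CPM in old capsules (SD; log2 fold change -6.68 ± 0.43, adjusted p = 4.38e-06). Fabp4, the adipocyte fatty acid binding protein, had 30.0, 60.0, 51.5 and 45.1 CPM in old RCAMs, against 3286, 6194 and 3929 CPM in old capsules. It was lower without overlap (log2 fold change -6.58 ± 0.34, adjusted p = 2.03e-06). Adipoq, adiponectin (ENSMUSG00000022878, GRCm38 chromosome 16, 23146536 to 23158028), had 4.81, 10.5, 9.55 and 6.79 CPM in old RCAMs, against 2297, 2743 and 2488 CPM in old capsules and was lower in every old RCAM library (log2 fold change -8.31 ± 0.32, adjusted p = 1.23e-06). Of 15 non-nested droplet members 2 were higher and 11 lower, of 15 synthesis members 2 and 11, of 9 fatty acid carriers 1 and 4, and of 8 adipokine members 0 and 8. Adipocyte markers, given above, moved with these lists, and their part in each difference was not tested.

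Enzymes of leukotriene and prostanoid synthesis were mostly enriched. Alox5, 5-lipoxygenase, the entry enzyme of leukotriene synthesis (ENSMUSG00000025701, GRCm38 chromosome 6, 116410077 to 116461178), had 428, 400.0, 449.9 and 339 CPM in old RCAMs, against 21.4, 18.7 and 28.0 CPM in old capsules. All 4 old RCAM libraries lay above all 3 old capsules, by 17.8-fold (log2 fold change 4.15 ± 0.20, adjusted p = 1.74e-06). Ptgs1, cyclooxygenase 1, had 349.6, 314, 285 and 287 CPM in old RCAMs, against 47.4, 45.9 and 53.1 CPM in old capsules, without overlap (log2 fold change 2.66 ± 0.14, adjusted p = 2.03e-06). Tbxas1, thromboxane synthase, and Pla2g7, which degrades platelet activating factor, averaged 414 and 828 CPM in old RCAMs, against 58.0 and 92.0 CPM in old capsules (2.84 and 3.17 on the log2 scale). Ptgis, prostacyclin synthase of vessels and stroma, and Ptges, prostaglandin E synthase, averaged 4.63 and 9.97 CPM in old RCAMs, against 61.0 and 67.8 CPM in old capsules (-3.72 and -2.77). Of 13 non-nested members 9 were higher and 3 lower, with a median log2 fold change of 1.54. The summed level was 2251 to 2526 CPM in old RCAMs, against 551 to 801 CPM in old capsules.

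Summed over lists, no exact permutation test of 4 libraries against 3 can give a 2-sided p below 0.0571, so none of these sums could pass 0.05. Of the 26 topic lists with nested members left out, 23 reached that smallest p, which means that the sums of the groups did not overlap. The exceptions were the plasma cell, T cell surface and lectin lists (exact permutation p = 0.114, 0.229 and 0.8). Of single non-nested genes, 35.2% did not overlap with old RCAMs above and 36.1% with old RCAMs below. Separation was thus common in this comparison, and the 23 lists are not read as distinguished by it. Across the 5 topics, non-nested members called higher and lower numbered 15 and 84 of 133 for antibody, 3 and 36 of 48 for T cell, 22 and 10 of 38 for chemokine, 12 and 15 of 34 for complement and 28 and 45 of 85 for lipid genes. Over all non-nested genes 34.0% were higher and 35.4% lower. The shares of complement and lipid members called higher were near the first of these. The antibody count was partly fixed by the filter, as described for the variable segments. Of the members at 1 CPM or more in every old capsule, T cell members were near absent from old RCAMs in 26 of 45 cases, antibody members in 21 of 75, complement members in 3 of 28, and chemokine and lipid members in 1 each, of 30 and 80. Over all non-nested genes at that level 8.09% were near absent, and complement members were near that share.

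Whether these enrichments differed with age was asked in a fit of 14 libraries, in which the log2 fold change between RCAMs and capsules of old animals was set against that of young animals. Of 16626 non-nested genes, 3.39% had a larger and 2.08% a smaller log2 fold change in old animals at an adjusted p under 0.05. Over all 18856 genes these were 589 and 363, and the balance turned without a scaling factor (460 and 563), without old capsule replicate 1 (112 and 170) and without old capsule replicate 2 (352 and 379). Ighm, described above, changed side: it had 1334, 1098, 1067 and 1240.1 CPM in young RCAMs, against 128, 139 and 165 CPM in young capsules. All young RCAM libraries lay above all young capsules, whereas old RCAMs lay below old capsules (log2 fold change -0.90 between old RCAMs and old capsules and 3.04 between young RCAMs and young capsules; difference -3.95 ± 0.26, adjusted p = 1.02e-05). Ccl4 had a smaller enrichment in old animals (log2 fold change 4.37 between old RCAMs and old capsules and 7.05 between young RCAMs and young capsules; difference -2.68 ± 0.54, adjusted p = 0.0223). C4b and Soat1 did too, with differences of -1.28 and -1.56 (adjusted p = 0.0261 and 0.024), and so did Ighj4, a joining segment of at most 4.27 CPM in any library (-6.51, 0.00969; -9.0 without young capsule replicate 3). Macrophage markers moved the same way, with a median difference of -0.93 (1 of 14 past the threshold). They summed to 3735 to 9958 CPM in old capsules, against 1723 to 3455 CPM in young capsules, and their part in these differences was not tested.

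In the other direction, Ccl11, Ackr3 and Fabp4 were less depleted from old RCAMs than from young ones, relative to the tissue of the same age. Ccl11 had log2 fold change -2.66 between old RCAMs and old capsules and -4.97 between young RCAMs and young capsules (difference 2.31 ± 0.44, adjusted p = 0.0197). Ackr3 had log2 fold change -3.46 between old RCAMs and old capsules and -6.18 between young RCAMs and young capsules (difference 2.72 ± 0.56, adjusted p = 0.0225). For Fabp4 the difference was 1.98 ± 0.45, adjusted p = 0.0295. Cd55, a complement regulator, and Fabp3, a fatty acid carrier of muscle at under 1 CPM in all old libraries, passed as well (1.40 and 5.18, adjusted p = 0.0424 and 0.0454). Fibroblast markers moved the same way: 5 of 8 had a positive difference past the threshold, with a median of 1.76. Of these 5, 3 lost the call in 6 to 9 of the fits that left out 1 library, and the others in 2 each. Median differences were 1.63 for endothelial (1 of 9 past the threshold), 1.92 for mural (1 of 5), 3.62 for brown fat (2 of 6) and 0.84 for adipocyte markers (0 of 7). They were 2.51 for proximal tubule (0 of 7), 1.63 for erythroid (0 of 5) and 1.38 for distal nephron markers (1 of 6). The 2 brown fat calls were lost in 8 and 12 of the 14 fits that left out 1 library. Medians were -1.22 for mast cell, -0.76 for mesothelial and -4.42 for adrenal markers. Proximal tubule markers summed to 6105 to 23828 CPM in young capsules and 1185 to 5850 CPM in old ones. The part of these cell types in the result was not tested. Leaving out old capsule replicate 1 ended the calls for Ccl11 (2.17, adjusted p = 0.052), Ackr3 (2.48, 0.0642), C4b (-1.23, 0.054) and Fabp4 (1.68, 0.0828). Leaving out young capsule replicate 1 ended those for Ackr3 (0.0516) and C4b (0.0597), and leaving out young RCAM replicate 4 that for Fabp4 (0.0549). Cd55 and Fabp3 lost their calls in 11 and 12 of the 14 fits that left out 1 library, and the difference for Fabp3 was 3.57 without old RCAM replicate 1. The difference for Ccl4 was -3.59 without young capsule replicate 1. Ighm, Ighj4, Ccl4 and Soat1 kept their calls in all 14.

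**Figure D4:**
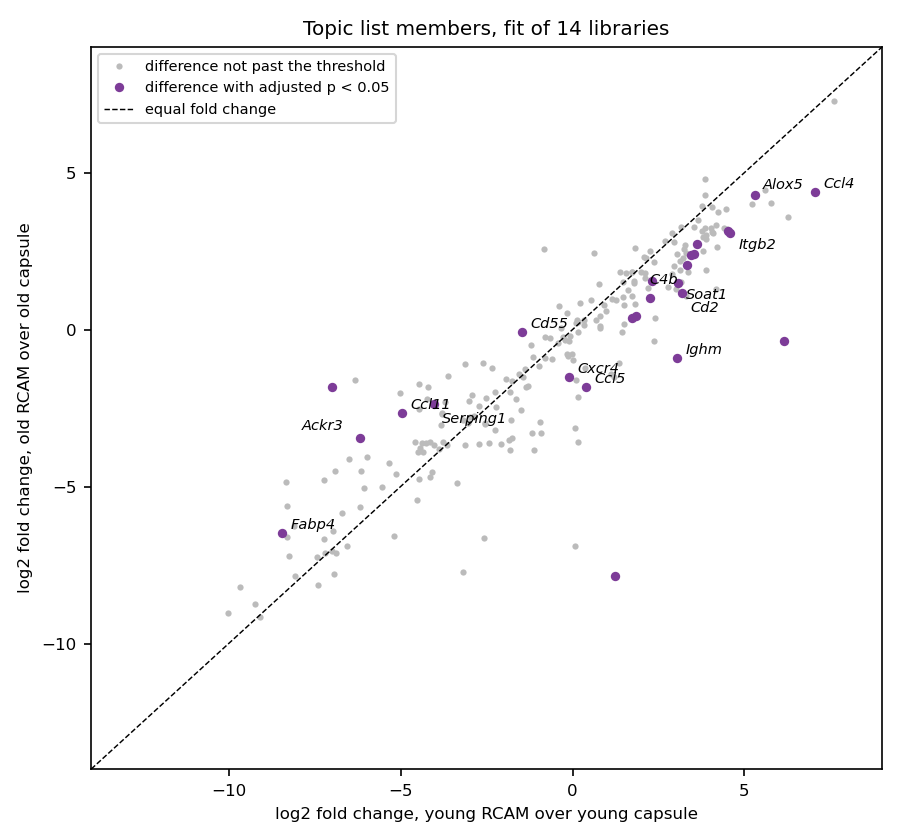
Log2 fold change of RCAMs over capsules in young animals (horizontal) and in old animals (vertical) for 241 non-nested topic members with reads in all 4 groups, from the fit of 14 libraries. Purple points are the 25 members whose difference between ages passed an adjusted p under 0.05, and the dashed line marks equal fold changes. Ighm lies right of zero for young and below zero for old animals.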

How the data were processed

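The authors deposited raw read counts per gene, 1 table for each library. Reads were single-end, per the labels, and the genome build was GRCm38, per the submitters' processing notes. The aligner, counter and strand setting were not given in the sources used here. Libraries were grouped by title. Counts were filtered with filterByExpr, scaled by TMM and fitted with edgeR 4.0.16 (quasi-likelihood test, Benjamini-Hochberg adjustment, threshold 0.05). The fit was over the 7 old libraries and, for the difference between ages, over 14. The steps of the fit of 7 were also run on simulated counts with few changed genes and groups otherwise alike. That setting does not test scaling or false calls between groups as unlike as these. Exon overlap between genes was computed from GENCODE M21. List sums were compared by an exact permutation test. The floor was 3 counts per library, which covers counting error only.

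Genes were named by a rule: the 4 members of each list with the highest mean CPM, those with the largest called change in each direction, the 8 largest changes of all genes, up to 5 members in each direction of the age difference, and fixed markers. Which of them to describe, and 38 further genes of 138, were chosen after their values were seen. The members and lists were chosen with earlier results of these data known. Alternatives were RLE and no scaling, other filters, DESeq2 1.42.0, limma-voom 3.58.1, a replicate block, all 22 libraries, each library left out, and, added after seeing the data, the removal of nested genes.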

Additional observations from a re-analysis of the deposited data

Results flagged for a closer look

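Single old RCAM libraries stood apart for some genes. A library's gap to its nearest neighbour took up more of the range of the 4 than Dixon's 95% critical value. About 1 of 20 groups of normally distributed values pass that limit by chance. The rate does not hold for genes with few reads, since reads in 1 library alone always pass it. Ighg1, Ighg2c, Ighg3, Pax5 and Upk3b, each with a statistic of 1.0, were of that kind. Of the 180 groups of 4 looked at, 22 were past the limit, a count that cannot be set against that rate. The following genes stood high in 1 library, with its value in CPM. Ighg1 (0.372), Ighg3 (0.604), Igkv3-2 (192), Pax5 (0.0697), Cxcl13 (817), Vsig4 (199), Clu (8.85), Msr1 (429.9), Marco (201) and Upk3b (0.209) did so in old RCAM replicate 1. Ighg2b (1.02) and Igha (428) did so in old RCAM replicate 2. Ighg2c (0.221) did so in old RCAM replicate 3. Cx3cl1 (19.1) and Pon1 (0.142) did so in old RCAM replicate 4. The following stood low. Cd4 (42.9) did so in old RCAM replicate 1. Ptges (3.30) did so in old RCAM replicate 2. Trem2 (143) did so in old RCAM replicate 3. Pltp (3906) did so in old RCAM replicate 4. Of the summed lists, in CPM of the library total, the classical complement list stood low in old RCAM replicate 4 (14722), the lipid uptake list high in replicate 1 (3795) and the endothelial list high in replicate 3 (57.9).

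The log2 fold change between RCAMs and capsules differed between old and young animals for 22 genes named in the text, by the test of the difference in the fit of 14 libraries with edgeR's quasi-likelihood test; the values are old minus young, then the adjusted p. It was smaller in old animals for Ighj4 (-6.51, 0.00969), Ighm (-3.95, 1.02e-05), Ccl4 (-2.68, 0.0223), Ccl5 (-2.22, 0.0448), Cd2 (-2.01, 0.0306), Soat1 (-1.56, 0.024), Itgb2 (-1.49, 0.0392), Cxcr4 (-1.42, 0.037), Colec12 (-1.42, 0.0372), Ighd (-1.36, 0.031), C4b (-1.28, 0.0261), Fcgr2b (-1.13, 0.0372), Bank1 (-1.06, 0.0295), Alox5 (-1.03, 0.041), Cxcr3 (-0.89, 0.0355) and Trim21 (-0.75, 0.0342). It was larger in old animals for Cd55 (1.40, 0.0424), Serping1 (1.66, 0.0461), Fabp4 (1.98, 0.0295), Ccl11 (2.31, 0.0197), Ackr3 (2.72, 0.0225) and Fabp3 (5.18, 0.0454). When 1 of the 14 libraries was left out in turn, the call was lost in 13 fits for Ccl5, 12 for Itgb2, 12 for Fabp3, 11 for Cxcr4, 11 for Cd55, 10 for Serping1, 10 for Colec12, 10 for Alox5, 9 for Fcgr2b, 8 for Trim21, 6 for Ighd, 6 for Cxcr3, 4 for Cd2, 4 for Bank1, 2 for Fabp4, 2 for C4b, 2 for Ackr3 and 1 for Ccl11. Ighm, which had the smallest p, was above the tissue in 4 of 4 young RCAM libraries and below it in 4 of 4 old ones.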

How the results depend on the processing

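The counts of genes higher (5664) and lower (6767) in old RCAMs kept within 1.5 times under RLE scaling, no scaling, DESeq2, limma-voom and the fit of all 22 libraries. A filter of 10 CPM in 3 libraries, which tests fewer genes, gave 4014 lower, 789 at least 4-fold higher and 1885 at least 4-fold lower, and 10 antibody, 6 T cell, 8 chemokine and 9 complement members lower. These and the next member counts include nested members, of which the main fit called 89, 39, 17 and 17 lower in these topics and 47 for lipid. Testing every gene with a count gave 149 antibody members lower. Without genes covered by another gene at all there were 3481 higher and 3886 lower, 1147 at least 4-fold higher and 2346 at least 4-fold lower, with 23 T cell, 9 chemokine and 28 lipid members lower. Without genes covered at least 50%, 1015 genes were near absent and 10 chemokine members lower. For the difference between ages, no scaling gave 460 positive and 563 negative, and DESeq2 gave 1312 positive and 1043 negative. The T cell surface sum, lower in old RCAMs by the unscaled total, had a log2 ratio of 0.04 with the TMM-scaled total. Slc27a1, a fatty acid transporter, ranged from -0.73 to 0.57 with 1 library left out, and was called higher without old capsule replicate 2. The cause of these moves was not tested beyond the smaller or larger number of genes tested.

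With 1 library left out, higher calls ranged from 5224 to 5591, lower from 6406 to 6692, at least 4-fold higher from 1710 to 1967 and lower from 4165 to 4325, and near-absent genes from 1682 to 1800. The age difference ranged from 112 positive without old capsule replicate 1 to 987 without old capsule replicate 3, and from 114 negative without young capsule replicate 1 to 607 without old capsule replicate 3, against 589 and 363 with all libraries. Of 197 genes named by the rule or in the text, 171 kept direction and side of the threshold under every alternative that gave a value, which was 15 to 18 alternatives per gene.

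Whether the replicate numbers pair the libraries is not known. The correlation of deviations of same-numbered libraries was -0.027, 0.057 and -0.035, against -0.055 to 0.05 for the other pairs. Correlations between a sorted fraction and whole tissue cannot show whether libraries shared an animal. A fit with replicate number as block called 4913 genes higher and 6090 lower, 1774 and 4217 of them at least 4-fold, and the age difference held for 552 positive and 261 negative. Leaving out nested members, the block called 15 and 78 antibody, 3 and 36 T cell, 21 and 10 chemokine, 12 and 14 complement and 27 and 40 lipid members higher and lower. Of the genes described, the block ended the calls for Jchain (adjusted p = 0.103), Il7r (0.131), Cxcl13 (0.151), Cd36 (0.19), Marco (0.15) and Cyp11a1 (0.0888). Fold changes of genes with a few reads in one group depend on depth and on the prior count.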
